A study of Mus musculus with 10 samples.

Results

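The TREM receptors, their signalling partners and a pair of surface markers of lipid-laden macrophages were followed in visceral fat of mice on chow or a high-fat diet. The members were every probe set with exactly 1 gene symbol in the platform annotation where that symbol was Trem1, Trem2, Trem3, Tyrobp, Hcst, Syk, Inpp5d, Gpnmb or Cd9. All 9 genes were found among the 18193 with a probe set of their own, on 16 of the 45101 probe sets of the array, and 5 of them had several probe sets. RNA came from the epididymal white fat pad of male C57BL/6J mice, which were 8 weeks of age when the diets began and stayed on them for 8 weeks. The chow group (5 mice) ate CRF-1 chow and the high-fat group (5 mice) a diet with 60% fat. Each mouse gave 1 Affymetrix array, and the spread behind each p-value is that between animals.

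TREM receptors sit on myeloid cells and have almost no signalling tail of their own. They pair with DAP12, the adaptor encoded by Tyrobp, whose tyrosine motif is phosphorylated by Src-family kinases and recruits the kinase Syk, while DAP10, encoded by Hcst, recruits phosphoinositide 3-kinase, and the phosphatase SHIP1, encoded by Inpp5d, restrains both arms. In obese fat, TREM2 is known from macrophages that gather around dying adipocytes and store lipid, cells that also carry the glycoprotein GPNMB and the tetraspanin CD9.

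On the high-fat diet the adaptors Tyrobp and Hcst, the kinase Syk, the marker Gpnmb and 1 of the probe sets of Trem2 were higher, and no member was lower past the threshold. In limma, 8 of the 16 member probe sets rose at an adjusted p under 0.05. None fell in limma, also at an unadjusted p under 0.05. Over all 45037 probe sets tested 9.89% rose and 8.01% fell by the same rule, 17.9% in all. On the log2(value + 16) scale, which damps dim values, 8 members again rose and none fell, against 10.2% and 7.50% of all probe sets. By gene, each read from its brightest probe set, 5 of 9 rose (Trem2, Tyrobp, Hcst, Syk and Gpnmb), against 12.1% of 18193 genes that rose and 11.9% that fell (24.0% in all). For Trem2 that probe set is 1421792_s_at, chosen by its mean over all arrays: on chow alone it was the dimmer of the pair (mean 1.37, SD 0.16, n = 5, against 3.16, SD 0.39, n = 5), so its high-fat signal decided the choice. The median change of the 9 genes was 2.52 on the log2 scale and that of all genes -0.036. The diets did not overlap for the same count of 8 member probe sets, where 16.7% of all probe sets did not overlap, and for 5 of the 9 genes, where 22.5% of genes did not. Levels are log2 intensities after quantile normalization, and changes are high-fat minus chow on that scale with the standard error (SE) from limma. No detection calls were used, so a dim signal does not say whether the transcript was present. In bulk tissue, more cells of a type and more RNA per cell cannot be told apart.

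**Figure D1:**
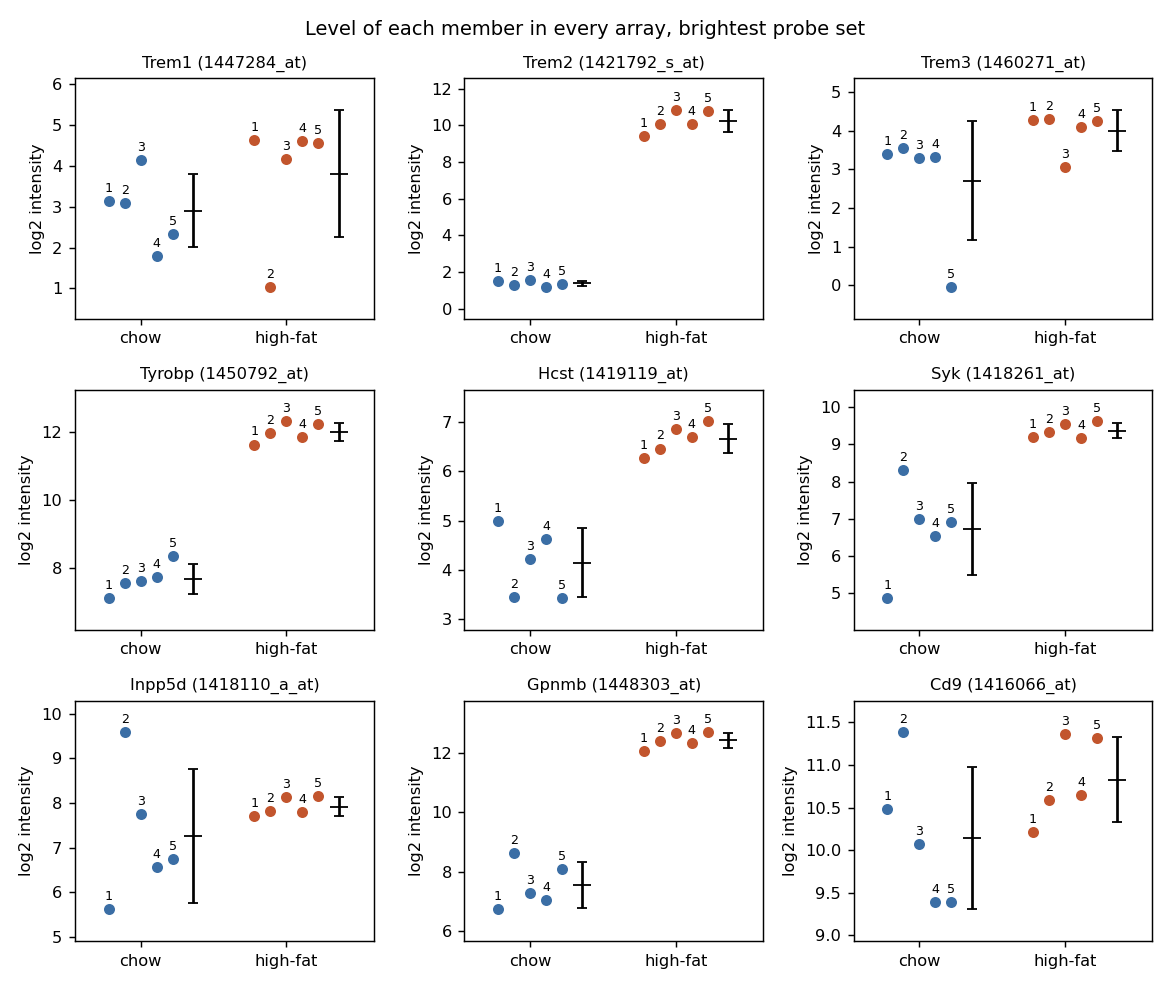
Log2 intensity of the brightest probe set of each of the 9 genes in all 10 arrays, numbered by replicate, with the mean and SD of each diet beside the points; the vertical scales differ. Trem2, Tyrobp, Hcst, Syk and Gpnmb were higher in all 5 high-fat arrays than in any chow array, while the diets overlapped for Trem1, Trem3, Inpp5d and Cd9.

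Promoter windows are shown for 3 genes that rose (Trem2, Hcst and Gpnmb) and for Inpp5d, which did not pass, so that the letters near their starts can be read beside the changes. RefSeq windows of build GRCm38.p6 were matched by symbol for 7 of the 9 genes, Tyrobp and Trem3 not among them. Each runs 5′ to 3′ on the gene's strand from 250 bases before the annotated start to 30 after it. The windows, in the order shown, are chr17:48346151-48346430 (+ strand), chr7:30419825-30420104 (- strand), chr6:49036268-49036547 (+ strand) and chr1:87620062-87620341 (+ strand). Capitals mark matches, on either strand, to 4 motifs. AGGAAGT is a core bound by ETS factors such as PU.1, the myeloid lineage factor. TGANTCA, with any letter in the middle, is a loose pattern that includes the sites bound by AP-1. The E-boxes CACGTG and CATGTG are bound by the MITF and TFE factors of lysosomal genes.
Trem2: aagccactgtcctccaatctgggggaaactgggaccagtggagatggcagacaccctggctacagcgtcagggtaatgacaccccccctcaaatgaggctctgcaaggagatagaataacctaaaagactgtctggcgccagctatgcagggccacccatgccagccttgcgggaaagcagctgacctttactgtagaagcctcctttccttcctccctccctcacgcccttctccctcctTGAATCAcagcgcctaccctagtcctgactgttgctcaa
Hcst: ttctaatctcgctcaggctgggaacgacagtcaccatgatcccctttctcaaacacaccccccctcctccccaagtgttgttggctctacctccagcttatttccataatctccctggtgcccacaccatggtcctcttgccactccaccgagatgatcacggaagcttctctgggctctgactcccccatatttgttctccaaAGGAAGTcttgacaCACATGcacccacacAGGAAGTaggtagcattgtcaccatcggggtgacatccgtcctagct
Gpnmb: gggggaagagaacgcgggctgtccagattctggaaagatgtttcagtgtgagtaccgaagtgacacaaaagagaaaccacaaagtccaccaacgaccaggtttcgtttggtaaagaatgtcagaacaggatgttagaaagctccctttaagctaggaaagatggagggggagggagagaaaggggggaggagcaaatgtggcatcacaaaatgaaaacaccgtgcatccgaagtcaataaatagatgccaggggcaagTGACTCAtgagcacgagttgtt
Inpp5d: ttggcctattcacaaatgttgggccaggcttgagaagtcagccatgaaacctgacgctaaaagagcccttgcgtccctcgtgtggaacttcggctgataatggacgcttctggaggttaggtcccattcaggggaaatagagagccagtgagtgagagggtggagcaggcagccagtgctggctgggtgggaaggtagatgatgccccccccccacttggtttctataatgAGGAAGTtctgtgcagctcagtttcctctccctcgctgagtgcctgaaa

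Trem2 and Gpnmb each matched TGANTCA, with different middle letters (TGAATCA and TGACTCA), and Hcst held other motifs. Because the pattern takes any middle letter, a match alone does not make an AP-1 site, and binding was not tested. Trem2 had TGANTCA starting 9 bases before its start and Gpnmb had it 8 bases after, a motif that 7.46% of all 32851 windows of this length hold. Hcst had AGGAAGT at 46 and 17 bases before its start and CATGTG at 32, and Inpp5d had AGGAAGT at 19. AGGAAGT occurs in 8.65% of all windows and CATGTG in 13.4%. Of the members not printed, Trem1 had AGGAAGT at 109 bases before its start, Cd9 had CATGTG at 38, and neither Syk window held any of the 4. CACGTG, in 6.79% of windows, was in none of the members' windows. No matches overlapped in the printed windows.

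The arrays carried other differences that moved with diet or within the chow group. The median intensity of the arrays ran from 17.9 to 27.4. The mean log2 level of 15 measured markers of epididymis and testis was 6.55, 11.93, 10.37, 8.05 and 7.35 in chow replicates 1 to 5 and 3.47 to 5.12 on the high-fat diet. The summed intensity of these markers was 5190 to 81742 in chow arrays and 335.8 to 939 in high-fat arrays. Their mean did not overlap between the diets, so a fit with it as a covariate cannot separate its part from that of diet. With that covariate 2.76% of all probe sets changed, against 17.9% without it, and the results given for it below carry this limit. The 9 epithelial markers were also lower on the high-fat diet, 9 of 9 past the threshold, where 11.9% of all genes fell and 12.1% rose. For the actin control probe sets, signal at the 5' end over that at the 3' end was 0.272 to 0.456 on chow and 0.557 to 0.643 on the high-fat diet. For Gapdh it was 0.563 to 0.900 and 1.02 to 1.08 (2-sided exact permutation p = 0.00794 for each control). Neither ratio overlapped between the diets, so it cannot be told apart from diet in any comparison here. The adipocyte markers Adipoq, Cidec and Fabp4 were bright in both groups (chow means 12.93, 12.07 and 13.59), and 1 of 9 adipocyte markers rose. Chow replicates 1 and 2 stood apart from the other chow arrays in these markers. Their mean over the 9 adipocyte markers was 10.78 and 9.77, against 11.31 to 11.94 in chow replicates 3 to 5, and over 11 endothelial markers 7.97 and 7.15, against 9.40 to 9.81. Over the epithelial markers it was 10.34 and 10.42, against 6.73 to 8.39. For this reason results are also given without this pair of arrays. Under that choice all 11 endothelial markers fell, as did 14.0% of all probe sets, where none of these markers changed over all arrays. Chow replicate 2 was the highest chow array for 10 of the 16 member probe sets and chow replicate 1 the lowest for 8. The part of these differences in the members' changes was not tested beyond the values given beside each result.

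Trem2, the lipid-sensing receptor of the family, is read by a pair of probe sets that did not give the same picture. Probe set 1421792_s_at gave log2 levels of 1.49, 1.30, 1.58, 1.19 and 1.31 in chow replicates 1 to 5, and 9.40, 10.07, 10.83, 10.07 and 10.78 in high-fat replicates 1 to 5. All chow arrays were dim and close together, and all high-fat arrays were bright. The deposited intensities were 2.38 to 3.18 on chow and 743 to 2474 on the high-fat diet, so on chow at most 17.3% of probe sets on the same array were as dim or dimmer, and on the high-fat diet 92.7% to 97.3%. The change was 8.86 (SE 0.27, adjusted p = 4.63e-08; 2-sided exact permutation p = 0.00794, the smallest that 5 against 5 arrays allow). By p-value it ranked 1 of 45037 probe sets and by size of change 2. Because chow lay near the bottom of the intensity range, the size depends on how dim values are treated: on the log2(value + 16) scale the change was 6.03 (SE 0.24) and still ranked 2.

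The other Trem2 probe set, 1421226_at, was dim in every array. Its log2 levels were 3.06, 3.47, 3.37, 3.39 and 2.53 on chow and 2.28, 2.66, 3.63, 1.08 and 3.76 on the high-fat diet. The diets overlapped, with the lowest and the highest value both on the high-fat diet. Its change was -0.48 (SE 0.53, adjusted p = 0.593), and its 95% interval from -1.63 to 0.67 does not reach the change of the brighter probe set. The changes of the pair differed by 9.34 on the log2 scale, with the within-array difference higher in all 5 high-fat arrays than in any chow array (exact permutation p = 0.00794; 0.0556 after adjustment over the 7 pairs of probe sets compared). On the log2(value + 16) scale the changes differed by 6.13 (exact permutation p = 0.00794, 0.0139 after adjustment). The unadjusted p was the smallest possible on both scales, so the adjusted values differ only through the p-values of the other pairs. With this many arrays, a lone smallest p among 7 pairs cannot adjust below 0.0556. The name ending _s_at marks a probe set whose probes may match more than 1 transcript, and which Trem2 transcripts each probe set reads was not analysed here.

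**Figure D2:**
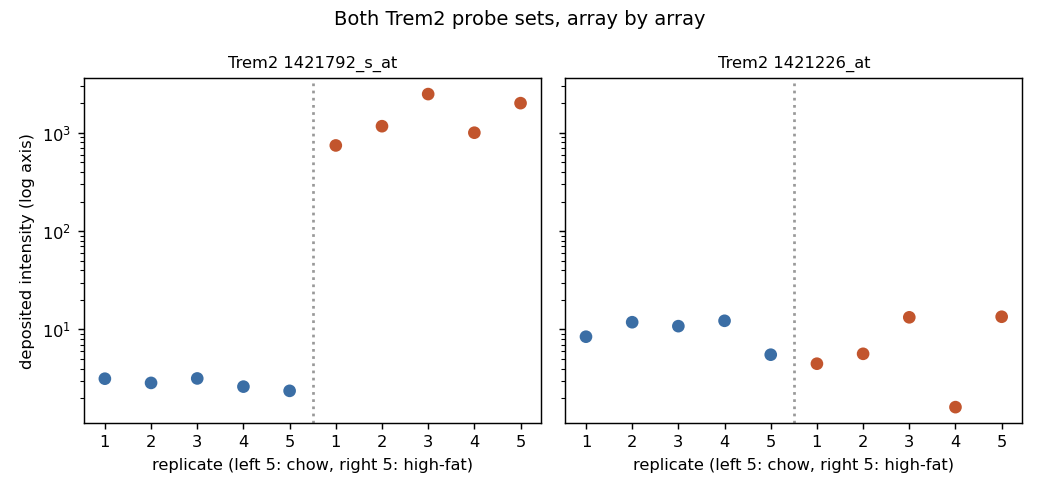
Deposited intensity, on a log axis, of both Trem2 probe sets in each array, chow replicates on the left of the dotted line and high-fat replicates on the right. Probe set 1421792_s_at went from 2.38 to 3.18 on chow to 743 to 2474 on the high-fat diet, while 1421226_at reached at most 13.5 in any array.

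Trem1, the amplifying receptor of neutrophils and monocytes, was dim and did not pass on either probe set. On 1447284_at its log2 levels were 3.14, 3.09, 4.15, 1.79 and 2.34 on chow and 4.63, 1.04, 4.18, 4.61 and 4.57 on the high-fat diet. High-fat replicates 1, 3, 4 and 5 lay above all chow arrays and replicate 2 below them all. The change was 0.90 (SE 0.73, adjusted p = 0.449), and on 1460282_at it was 1.42 (SE 0.72, adjusted p = 0.209). Without high-fat replicate 2 the changes were 1.596 (adjusted p = 0.0515) and 0.92 (adjusted p = 0.397) in limma, and on the log2(value + 16) scale with all arrays 0.45 and 0.21. Trem3, a DAP12-paired receptor of mouse macrophages, measured 3.41, 3.56, 3.29, 3.32 and -0.04 on chow and 4.29, 4.31, 3.06, 4.09 and 4.24 on the high-fat diet. High-fat replicate 3 was below 4 of the chow arrays, and the change of 1.29 did not pass (SE 0.67, adjusted p = 0.221; exact permutation p = 0.0397). Without chow replicate 5, the lowest array, the Trem3 change was 0.60 (limma adjusted p = 0.288), and on the log2(value + 16) scale with all arrays 0.42. Of 12 measured neutrophil markers 4 rose, 1 fell and 7 did not pass, where 12.1% of all genes rose and 11.9% fell. S100a9, the dim partner of S100a8, was among those 7 (0.091, SE 0.67, limma adjusted p = 0.946). So were Ngp, Camp, Cxcr2 and Mpo, with changes of 0.13, -0.10, 0.52 and 0.73. These were named after their values were seen. S100a8, an abundant neutrophil alarmin, rose by 4.84 (SE 0.59), Csf3r, the receptor of the neutrophil growth factor, by 1.45 (SE 0.24), and Ltf, lactoferrin of granules and of epithelia, fell by 4.28 (SE 1.08). The summed intensity of the neutrophil markers was 212 to 1698 on chow and 1279 to 2428 on the high-fat diet, and 3 of the 12 were at the floor in at least 1 array.

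The Trem genes lie together on chromosome 17 in the RefSeq gene table of assembly GRCm38.p6, in the order Trem1, Trem3, Treml4, Treml2, Trem2 and Treml1 with unnamed loci left out. Their 3 TREM-like neighbours were looked up after values were seen. Treml4 rose by 4.18 (SE 0.45, adjusted p = 0.000109), from the floor in 2 chow arrays, and by 0.99 on the log2(value + 16) scale. Treml1, a platelet receptor, differed by 0.24 (adjusted p = 0.676), and Treml2 by -0.50 (adjusted p = 0.639).

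Tyrobp, the DAP12 adaptor, was higher in every high-fat array than in any chow array. Its log2 levels were 7.11, 7.56, 7.62, 7.74 and 8.35 on chow and 11.63, 11.97, 12.31, 11.85 and 12.22 on the high-fat diet. The groups stood apart by more than 3 log2 units, with 1 probe set and no array near the floor. The change was 4.32 (SE 0.21, adjusted p = 5.87e-07), or 19.97-fold. Tyrobp and Hcst are neighbouring genes on chromosome 7. Hcst, the DAP10 adaptor, measured 4.999, 3.45, 4.23, 4.62 and 3.43 on chow and 6.27, 6.46, 6.86, 6.70 and 7.01 on the high-fat diet. All high-fat arrays were above all chow arrays, and Hcst rose by 2.52 (SE 0.32, adjusted p = 0.000329). With the epididymis and testis marker mean as a covariate, which the diets do not share in range, 2.76% of all probe sets changed. In that fit the Hcst change was 1.71 and did not pass (limma adjusted p = 0.123), while Tyrobp changed by 4.19 (limma adjusted p = 0.000782). Hcst is also used by NK and T cells, and of 13 measured markers of these cells 4 rose, where 12.1% of all genes rose and 11.9% fell. Among the 4 was Klrd1, an NK receptor chain, at 1.23 (SE 0.18), while Nkg7 and Cd8a differed by 0.68 and 0.37 (limma adjusted p = 0.177 and 0.486).

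Syk, the kinase that binds the phosphorylated DAP12 motif, rose on 3 of its 4 probe sets. On the brightest, 1418261_at, log2 levels were 4.88, 8.32, 6.98, 6.55 and 6.90 on chow and 9.18, 9.32, 9.54, 9.17 and 9.61 on the high-fat diet. All high-fat arrays were above all chow arrays, and the chow arrays spread more widely (SD 1.23, n = 5) than the high-fat arrays (SD 0.21, n = 5). The change was 2.64 (SE 0.48, adjusted p = 0.00302), with 2.62 on 1418262_at (SE 0.60, adjusted p = 0.0108) and 1.61 on 1425797_a_at (SE 0.39, adjusted p = 0.0143). Probe set 1457239_at, which was dim and touched the floor in 1 chow array, differed by 0.055 (SE 0.99, adjusted p = 0.979). In 1425797_a_at the lowest high-fat level (4.07) and the highest chow level (4.05, replicate 2) almost touched. With the epididymis and testis marker mean as a covariate, the changes were 4.48, 5.07 and 2.14 in the same order, the last with an adjusted p = 0.148.

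Inpp5d, the SHIP1 phosphatase that opposes this pathway, did not pass on either probe set over all arrays. On 1418110_a_at its log2 levels were 5.63, 9.58, 7.74, 6.57 and 6.76 on chow and 7.71, 7.81, 8.12, 7.81 and 8.15 on the high-fat diet. The high-fat arrays fell inside the chow range: chow replicate 2 was above all of them, chow replicate 3 was level with them, and chow replicates 1, 4 and 5 were below. The change was 0.67 (SE 0.57, adjusted p = 0.484), and on 1424195_a_at 0.21 (SE 0.57, adjusted p = 0.846), where chow replicate 2 was again highest (7.55). The chow arrays with the highest, second and lowest level of Inpp5d, replicates 2, 3 and 1, were also those with the highest, second and lowest mean of epididymis and testis markers. Without chow replicate 2 Inpp5d rose by 1.25 (adjusted p = 0.0214), without chow replicates 1 and 2 by 0.90 (SE 0.24, adjusted p = 0.0167), and with the epididymis and testis mean as a covariate by 3.22 (SE 0.51, adjusted p = 0.0113). Probe set 1424195_a_at had changes of 0.64 (adjusted p = 0.126) without chow replicates 1 and 2 and 2.50 (adjusted p = 0.0747) with the covariate. The call for Inpp5d on 1418110_a_at thus changed with the chow arrays used and with the covariate. Probe set 1424195_a_at passed in no setting (lowest limma adjusted p = 0.072).

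**Figure D3:**
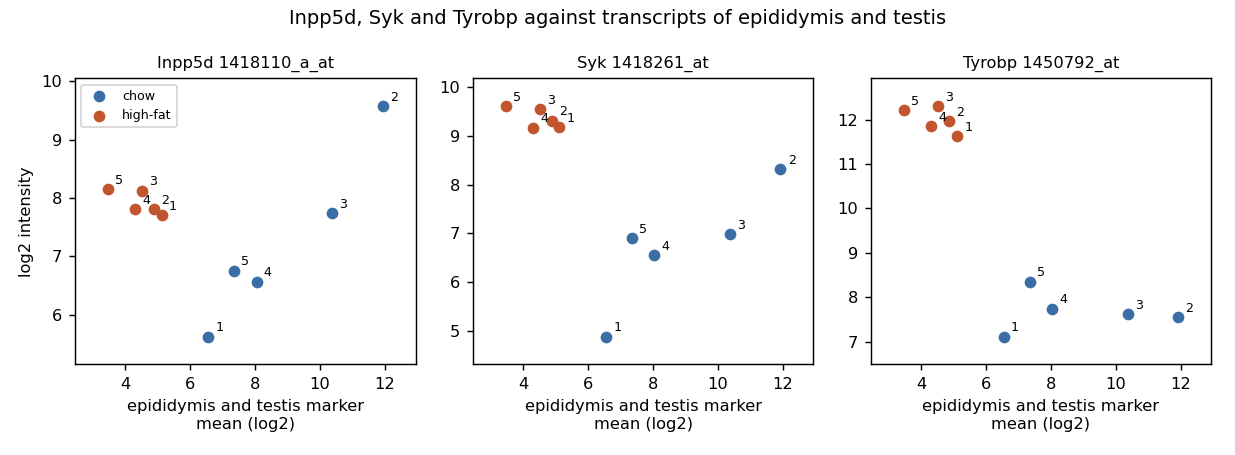
Log2 intensity of Inpp5d, Syk and Tyrobp (brightest probe sets) against the mean log2 level of 15 epididymis and testis markers in all 10 arrays, numbered by replicate. Chow replicate 2, with the highest marker mean (11.93), had the highest chow level of Inpp5d (9.58) and Syk (8.32) but not of Tyrobp (7.56), and chow replicate 1, with the lowest chow marker mean (6.55), the lowest of all 3.

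Gpnmb, a lysosomal and surface glycoprotein of lipid-laden macrophages, rose on both probe sets. On 1448303_at log2 levels were 6.74, 8.63, 7.29, 7.06 and 8.08 on chow and 12.07, 12.38, 12.66, 12.32 and 12.68 on the high-fat diet. The lowest high-fat array was more than 3 log2 units above the highest chow array. The change was 4.86 (SE 0.32, adjusted p = 3.36e-06), or 29.0-fold. Probe set 1439345_at, dim on chow with 1 array at the floor, gave 4.90 (SE 0.71, adjusted p = 0.000716) and 2.65 on the log2(value + 16) scale. Cd9, a tetraspanin of lipid-associated macrophages that many other cells also carry, was bright throughout, at 10.48, 11.38, 10.08, 9.39 and 9.39 on chow and 10.21, 10.59, 11.36, 10.65 and 11.32 on the high-fat diet. Chow replicate 2 held the highest value of all, and the change of 0.69 did not pass (SE 0.37, adjusted p = 0.246). Cd9 passed without chow replicate 2 (0.99, adjusted p = 0.0319), without chow replicates 1 and 2 (1.21, adjusted p = 0.00681) with limma's array weights (1.06, adjusted p = 0.0201) and after centring on array medians (1.17, limma adjusted p = 0.0407), a scaling that moved the median change of all probe sets to 0.17. Without chow replicates 1 and 2, 10 of the 16 member probe sets rose, against 14.3% of all probe sets (14.0% fell, 28.3% changed), and with the covariate 7 did, against 2.03% (0.726% fell, 2.76% changed).

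**Figure D4:**
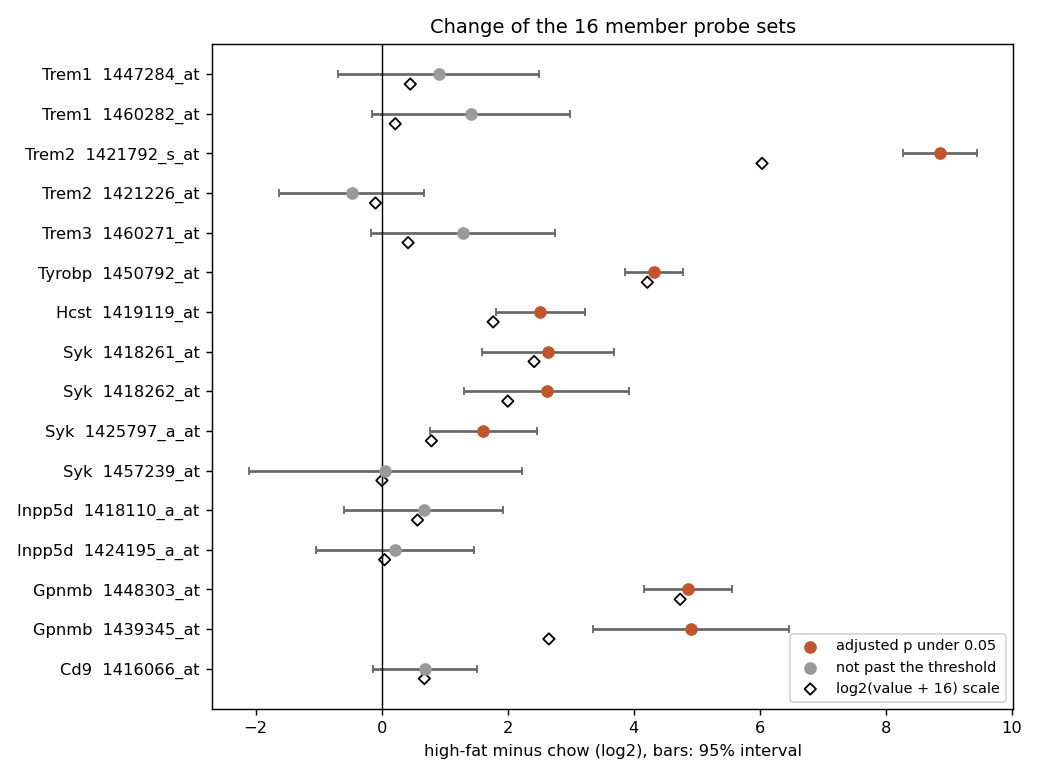
High-fat minus chow change of each of the 16 member probe sets on the log2 scale with its 95% interval, filled points coloured where the adjusted p was under 0.05, and open diamonds for the change on the log2(value + 16) scale. The 8 called probe sets belong to Trem2, Tyrobp, Hcst, Syk and Gpnmb, and their changes run from 1.61 to 8.86.

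Some members changed by more and some by less than the mean of the macrophage markers. The mean of 15 macrophage markers rose by 2.97, with 14 of 15 past the threshold, where 12.1% of all genes rose. Among them were Csf1r, the receptor for the macrophage growth factor (2.06, SE 0.18), Lyz2, lysozyme (3.07, SE 0.25), and C1qb, a complement chain (2.53, SE 0.29). Single markers ran from -0.23 for Mertk to 5.17 for Cd68, a lysosomal protein; both are named for their place in this range. Cd68 was the 1 marker of 15 that changed more than Tyrobp and more than Gpnmb, and 0 of 15 changed more than Trem2. Within each array the log2 difference between a member and that mean was compared between diets by an exact permutation test, adjusted over the 9 members. Trem2, read from 1421792_s_at, rose by 5.89 more than the marker mean, Gpnmb by 1.89 more and Tyrobp by 1.35 more (adjusted exact permutation p = 0.0143 for each). The value for Trem2 rests on dim chow signals and was 3.34 on the log2(value + 16) scale. Inpp5d and Cd9 changed by less than the marker mean, with differences of -2.30 and -2.28 (adjusted exact permutation p = 0.0143 for each). The within-array difference did not overlap between the diets for these 5 genes. With the epididymis and testis mean as a covariate Inpp5d itself changed by 3.22 and Cd9 by 1.45 (limma adjusted p = 0.0113 and 0.282). The marker mean and the difference from it were not fitted with that covariate, so the value for Inpp5d holds only without it. Syk and Hcst differed from it by -0.33 and -0.45 and did not pass (adjusted exact permutation p = 0.627 and 0.420). Trem1 and Trem3 differed by -2.07 and -1.68 (adjusted exact permutation p = 0.0595 and 0.112). On the log2(value + 16) scale Trem1, Trem3 and Hcst also passed, with differences of -2.25, -2.28 and -0.93 (adjusted exact permutation p = 0.00893 for each). The other Trem2 probe set, 1421226_at, changed by -0.48 where the marker mean changed by 2.97. On the high-fat diet the difference between Gpnmb and the marker mean was nearly the same in all 5 arrays (SD 0.024), and that of Tyrobp varied little (SD 0.058), against SDs of 0.76 and 0.16 on chow.

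**Figure D5:**
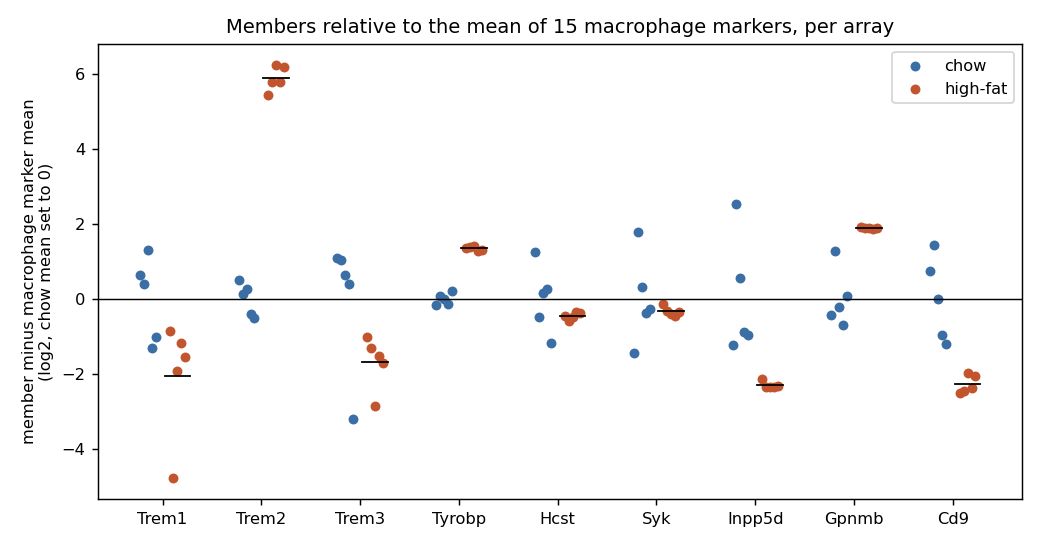
Log2 level of each member (brightest probe set over all arrays) minus the mean of 15 macrophage markers in the same array, with the chow mean of each gene set to 0; points are arrays and short lines the high-fat means. The high-fat means lie at 5.89 for Trem2, 1.89 for Gpnmb and 1.35 for Tyrobp, and at -2.30 for Inpp5d and -2.28 for Cd9.

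The high-fat arrays ranked alike for the members that rose. High-fat replicates 3 and 5 held the highest 2 levels in all 8 called probe sets, and replicate 1 the lowest in 7 of them. The macrophage marker mean put the same arrays first and last. So did Cd9 and Inpp5d (1418110_a_at), which did not pass, so the order was not particular to the members that rose. Trem2 1421226_at also had replicates 3 and 5 highest, while Trem1, Trem3, Syk 1457239_at and Inpp5d 1424195_a_at did not. The share of all probe sets with this order was not counted. The genes whose pattern over the 10 arrays was most like that of Trem2, by Pearson's r on the log2(value + 16) scale, were Rgs1, a regulator of G protein signalling, Tlr13, an RNA sensor, Ncf4, a subunit of the phagocyte oxidase, Cd300c2 and Adam8, a membrane protease (r = 0.997 for each). Those most like Tyrobp were Nckap1l, Fcer1g, Slc15a3, Adam8 and Arhgap30 (r = 0.998 to 0.999), and those most like Gpnmb were Ctss, Thoc6, Sash3, Cd68 and Cd300a (r = 0.994 to 0.996). The points share the step between the diets, and 480 of 11936 other genes had an r above 0.95 with Trem2, so these values are descriptions only.

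In a list of TREM-like genes and of receptors grouped with DAP12 or DAP10 users, part of the genes rose. Some of them are not known to pair with either adaptor, so the count does not describe DAP12 or DAP10 users alone. Where 12.1% of all genes rose and 11.9% fell, 10 of the 16 measured genes of this list rose and none fell. Their median change was 1.44, or 0.51 on the log2(value + 16) scale. Cd300lb, an activating receptor of myeloid cells, rose by 5.14 (SE 0.50), Cd200r4, an activating relative of the CD200 receptor, by 5.03 (SE 0.64), Sirpb1a, which has near-identical copies whose signal may be shared, by 4.497 (SE 0.28), and Cd300c2 by 4.41 (SE 0.19). Without chow replicates 1 and 2, 7 rose, and 7 with the covariate. In the first setting 14.3% of all probe sets rose and 14.0% fell, and in the second 2.03% and 0.726%. Shares by gene were not counted for these settings. Of 8 ITAM adaptors and kinases 4 rose and 1 fell. The kinase Btk rose by 4.09 (SE 0.65), Fcer1g, the adaptor of Fc receptors, by 3.79 (SE 0.23) and the kinase Tec by 1.38 (SE 0.18), whereas Zap70, the T cell relative of Syk, fell by 1.29 (SE 0.33, adjusted p = 0.0192). Without chow replicates 1 and 2, 5 of these rose and 2 fell, and with the covariate 2 rose. Zap70 changed by -1.53 without that pair of arrays (limma adjusted p = 0.00305). With the covariate Zap70 and Btk changed by -0.62 and 3.59 and did not pass (limma adjusted p = 0.629 and 0.156).

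Genes that act after Syk mostly rose, and so did some of the pathway's inhibitors. Of 24 measured genes downstream of Syk 16 rose and none fell. The list's median was 1.37. They included the adaptor Lat2 (5.10, SE 0.41), the GTPase Rac2 (3.16, SE 0.19), Pik3r5, a regulatory subunit of phosphoinositide 3-kinase (3.14, SE 0.33), and the linker Blnk (2.68, SE 0.44). Without chow replicates 1 and 2, 18 rose and 2 fell, and with the covariate 10 rose. Blnk did not pass with the covariate (2.69, limma adjusted p = 0.126). Of 10 inhibitors of ITAM signalling 5 rose and none fell, with a median of 0.92. These included the inhibitory receptors Pirb (4.41, SE 0.42) and Sirpa (3.45, SE 0.32) and the docking proteins Dok2 (2.79, SE 0.38) and Dok3 (1.10, SE 0.16). Without chow replicates 1 and 2, 6 rose and 1 fell, and with the covariate 3 rose. Dok2 and Dok3 did not pass with the covariate (limma adjusted p = 0.106 and 0.132). The share of all genes that rose over all arrays was 12.1% and their median change -0.036. Shares by gene were not counted for the other settings. By probe set, 14.3% rose and 14.0% fell without chow replicates 1 and 2, and 2.03% and 0.726% with the covariate.

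In the list of reported TREM ligands and shedding enzymes, no ligand rose past the threshold and some fell. Of its 12 measured genes 2 rose and 3 fell, where 12.1% of all genes rose and 11.9% fell. The median change of the list was -0.11. Clu, the lipid carrier clusterin, fell by 2.39 (SE 0.32), and the apolipoproteins Apoa1 and Apoa2 fell by 3.86 (SE 0.94) and 2.87 (SE 0.90, adjusted p = 0.0474). The markers of epididymis and testis were lower in the same arrays, and their part in these falls was not tested. With their mean as a covariate the changes of Clu, Apoa1 and Apoa2 were -1.27, -4.92 and -3.83 and did not pass (limma adjusted p = 0.160, 0.173 and 0.271), in a fit where 0.726% of all probe sets fell. Of the list, 2 rose and 5 fell without chow replicates 1 and 2, where 14.3% of all probe sets rose and 14.0% fell. Adam17, a sheddase of TREM2, rose by 1.24 (SE 0.15). The other gene that rose, Plxna1 (1.22, SE 0.17), is neither a ligand nor a sheddase and is named to complete the count. Apoe, a TREM2 ligand named after its value was seen, differed by -0.25 (SE 0.19, adjusted p = 0.426).

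A further 25 genes linked to lipid-associated macrophages were measured, of which 16 rose, none fell and the median change was 1.68. Among all genes 12.1% rose and 11.9% fell, with a median change of -0.036. Mmp12, macrophage elastase, rose by 6.08 (SE 0.55), the cathepsin Ctsk by 4.64 (SE 0.32), the integrin chain Itgax by 4.64 (SE 0.48) and Atp6v0d2, a proton pump subunit, by 3.99 (SE 0.60). Without chow replicates 1 and 2, 17 rose, and with the covariate 12 did. By probe set, 14.3% of the array rose in the first of these settings and 2.03% in the second, and shares by gene were not counted there. The list shares no gene with the general macrophage markers but holds genes of adipocytes, such as Fabp4 (0.014, adjusted p = 0.946). Whether it changed more than those markers was not tested.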

How the data were processed

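Epididymal fat RNA of 10 mice was measured on 10 arrays. The deposited table holds 1 linear intensity per probe set and array; for the authors' summary algorithm and scaling the sources used here give no name. Per the labels' protocols, biotin-labelled cRNA was made from the total RNA of each mouse. After quantile normalization, intensities under 0.662, the 5th percentile, were set to it before taking log2. Of 45101 probe sets, 64 controls were left out of tests; 34958 had 1 symbol, 932 several and 9211 none in the table given, and 34754 of the first matched the RefSeq gene table. A gene other than a member was read from its probe set with the highest mean.

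All 45037 probe sets were fitted together with limma 3.58.1 in R 4.3.3 (trend on mean expression, Benjamini-Hochberg, threshold 0.05), without covariates, and tested on simulated data first. Permutation tests are 2-sided and exact over 252 arrangements. The rule for named genes took all member probe sets, from each pathway list the 4 called genes that changed most (at least 2, completed in order of p), the brightest 3 of each marker list, and the 5 genes most like Trem2, Tyrobp and Gpnmb. Members and lists were chosen with earlier results of these data known. Same-numbered chow and high-fat arrays did not deviate together (correlations from -0.012 to 0.011). The number of arrays limits the precision.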

Additional observations from a re-analysis of the deposited data

Results flagged for a closer look

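A single array stood apart from its group in 3 of the 32 groups of 5 arrays examined (16 member probe sets on each diet), where chance flags about 1 in 20. All 3 concern dim probe sets of Trem1 and Trem3. Trem1 (1447284_at) was 1.04 in high-fat replicate 2, against 4.18 to 4.63 in the other high-fat arrays. Trem3 was -0.035 in chow replicate 5, against 3.29 to 3.56 in the other chow arrays, and 3.06 in high-fat replicate 3, against 4.09 to 4.31 in the others.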

How the results depend on the processing

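Of 45037 probe sets 8059 changed, 55.3% of them higher. The share higher was 66.3% for the values as deposited (7289 changed) and 76.5% with median centring (10315), which moved the median change of all probe sets to 0.17. Counts were 4719 with 1 probe set per gene, 12724 without chow arrays 1 and 2, 1243 with the epididymis and testis mean as a covariate, and 5916 to 10003 with 1 array left out. The member count was 5 of 9 with 1 probe set per gene and 8 to 10 with 1 array left out. With the replicate number as a block 6082 probe sets and 8 members changed; the labels give the number no meaning, and the arrays did not pair. The difference between the Trem2 changes was 9.55 as deposited and with median centring (adjusted exact permutation p = 0.0278 for both). It was 6.13 on the log2(value + 16) scale (adjusted exact permutation p = 0.0139) and 8.98 to 9.48 with 1 array left out. Its adjusted exact permutation p was up to 0.0625 over the alternatives, and these adjusted values move with the p-values of the other pairs too. Changes relative to macrophage markers passed for 8 genes on the log2(value + 16) scale and for 5 to 8 with 1 array left out. With possible cross-matches left out, Trem2 relative to the markers was -3.47, a setting that reads Trem2 from 1421226_at and changes the probe sets of some markers too. The uncalled change of Syk 1457239_at was -0.10 as deposited, -0.55 with array weights, -0.70 without chow arrays 1 and 2, -0.50 with the covariate and -0.50 to 0.60 with 1 array left out; Inpp5d 1424195_a_at ran from -0.073 to 0.82 and Syk relative to the markers from -0.69 to 0.11 there. The causes were not tested. A floor of 16 left no value for Trem1 1460282_at, Trem2 1421226_at, Syk 1457239_at and the Trem2 pair. Leaving out dim probe sets left none for these, Trem1 1447284_at, Trem3 and Syk 1425797_a_at, nor for Trem1 and Trem3 relative to the markers. Leaving out cross-matches left none for Trem2 1421792_s_at and the Trem2 pair, and 1 probe set per gene none for the pair and the 7 dimmer member probe sets. The permutation tests were not run with the block, where 5 pairs allow no p below 0.0625, with the covariate, or with other limma settings, which they do not use.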
